A study of Rattus norvegicus with 14 samples.

Results

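Lysosomal cathepsins were followed in the soleus of the rat, a slow calf muscle that works in posture, by taking every probe set (a group of probes that reads 1 transcript) whose only gene symbol was that of a chosen member. The 10 members were Ctsa, Ctsb, Ctsc, Ctsd, Ctsh, Ctsk, Ctsl, Ctss, Ctsz and Lgmn. They were read by 13 of the 31099 probe sets and make up 10 of the 14217 genes measured, and all 10 were among the 11064 genes tested. The arrays were 14 Affymetrix arrays of whole muscle from 12 male Sprague Dawley rats, 1 array per muscle. In tenotomy the tendon is cut, so that the muscle stays in place without bearing load. Right soleus muscles were tenotomized for 1 week (rats 12 and 13), 2 weeks (rats 25 and 27), 3 weeks (rat 32) or 4 weeks (rat 42), which the labels group as short-term immobilized (6 arrays), or for 6 weeks (rats 61 and 62), 16 weeks or 22 weeks (1 rat each), grouped as long-term (4 arrays). The 4 controls were left muscles: control 1 of rat 62, control 4 of rat 61, and controls 2 and 3 of a rat each that gave no other array. Rats 61 and 62 thus gave both a control and a 6-week muscle, and side and tenotomy cannot be told apart. No rat gave both a control and a short-term muscle and the labels give no ages, so tenotomy and a difference between cohorts of rats cannot be told apart in comparisons with short-term muscle.

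Cathepsins are proteases of the lysosome, the acidic compartment in which cells break down proteins taken up from outside or delivered by autophagy. Most are made as inactive precursors, carried to lysosomes by mannose 6-phosphate receptors and activated at low pH, where the vacuolar proton pump keeps the compartment acidic, while cystatins inhibit many of the cysteine-type enzymes. In muscle, lysosomal proteolysis takes part in the turnover of fibre proteins, and macrophages and fibroblasts in the tissue hold cathepsins of their own. All values below are signals scaled so that the arrays share a common median. Changes are log2 differences relative to the median tested gene of the same comparison, because that gene itself changed by -0.34 in short-term against control muscle, by 0.02 in long-term against control and by 0.37 in long-term against short-term. Adjusted p-values come from limma, a linear model fitted across all genes, with Benjamini-Hochberg adjustment over the 11064 genes and a threshold of 0.05, and they test the scaled change before the median gene is subtracted.

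The arrays differed in ways that touch these comparisons. Deposited array medians ran from 29.7 to 49.1 and spanned 0.73 on the log2 scale. RNA quality was read from Gapdh as the signal at the 3′ end over that at the 5′ end, which lay between 1.16 and 1.61 in short-term muscle, between 1.38 and 2.78 in controls and between 1.38 and 2.78 in long-term muscle. The same ratio for actin lay between 1.97 and 3.87, 1.47 and 2.37, and 1.39 and 3.74 in the same order. Poly-A spike-ins, foreign transcripts added to the RNA, read 170.3 to 482 in short-term muscle and 93.7 to 150 in controls, with no overlap (geometric means of 12 probe sets). The part of these differences in the results was not tested. All 12 listed muscle fibre genes were measured. Their summed signal ran from 88140 to 114597 in controls, from 70280 to 100254 in short-term and from 96103 to 140208 in long-term muscle. In limma 2 of them were lower and 0 higher in short-term against control muscle, beside 39.6% of all genes lower and 12.3% higher. Under all scalings used below 1 of them (Casq2) was lower, as were 16.9% of all genes.

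After 1 to 4 weeks of tenotomy 5 of the 10 genes rose and 0 fell: Ctsk, Ctss, Ctsh, Ctsa and Ctsb. Of all genes tested, 12.3% were called higher and 39.6% lower in this comparison. In the same 5 members the lowest short-term array exceeded the highest control, an order seen in 6.92% of genes tested. The median change of the 10 members was 0.91, against 0 for the median gene by construction. In whole muscle, more cells of a type and more RNA per cell cannot be told apart. The other 5 members had adjusted p-values between 0.0842 and 0.342, and 4 of these depended on how the arrays were scaled, as given further on.

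**Figure D1:**
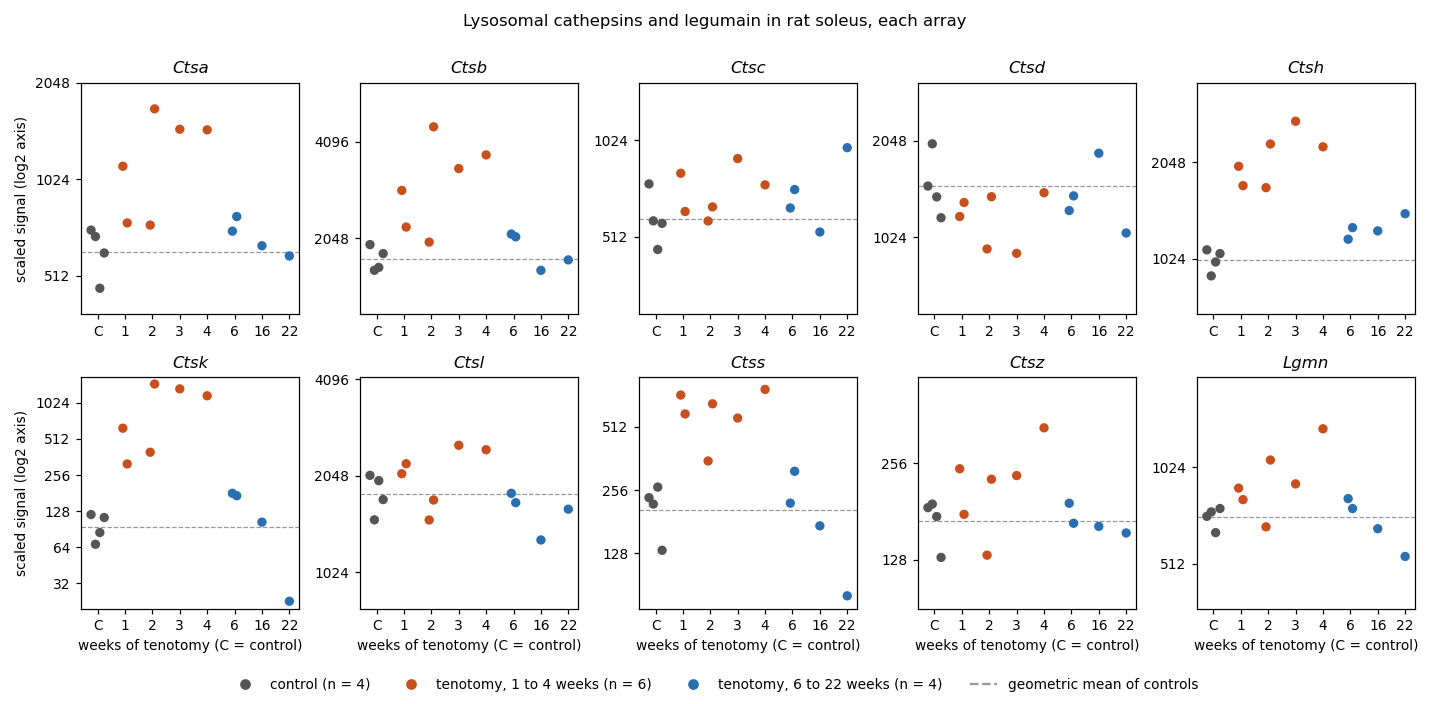
Scaled signal of each of the 10 genes on each of the 14 arrays (log2 axis), by weeks of tenotomy, with C for control; each point is 1 array and the dashed line is the geometric mean of the 4 controls. Ctsk lay between 317 and 1469.5 on the 6 short-term arrays, above all controls (67.8 to 119.9), and at 22.7 on the 22-week array; Ctsd showed no such separation.

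Ctsk (probe set 1369947_at) encodes cathepsin K, a cysteine protease that cleaves fibrillar collagen and is best known from osteoclasts. Its signals in controls 1 to 4 were 119.9, 67.8, 84.9 and 113. After tenotomy it read 629 and 317 at 1 week, 397 and 1469.5 at 2 weeks, 1338 at 3 weeks and 1172 at 4 weeks. Every short-term array was thus above every control, with the 2-week muscles of rats 25 and 27 far apart. The change was 3.34 (SE 0.53, n = 6 and 4, adjusted p = 0.000262). The long-term arrays read 180.3 and 172 at 6 weeks, 104 at 16 weeks and 22.7 at 22 weeks. The 6-week arrays were above all controls, the 16-week array was within their range and the 22-week array was the lowest of the 14.

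Ctss (1387005_at) encodes cathepsin S, a cysteine protease of antigen-presenting cells that trims the invariant chain from class II histocompatibility molecules. Controls 1 to 4 read 236, 219.7, 265 and 132. Short-term muscle read 727 and 590.4 at 1 week, 353 and 660.1 at 2 weeks, 564 at 3 weeks and 773 at 4 weeks. All 6 lay above the highest control, and the change was 1.87 (SE 0.31, adjusted p = 0.000876). Long-term muscle read 222 and 315 at 6 weeks, 173 at 16 weeks and 80.3 at 22 weeks, again with the 22-week array lowest of all 14.

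Ctsh (1386899_at) encodes cathepsin H, which acts mainly as an aminopeptidase. Controls lay between 906 and 1092, and short-term muscle read 1991 and 1733 at 1 week, 1708 and 2337 at 2 weeks, 2752 at 3 weeks and 2290.0 at 4 weeks. The groups did not overlap, and the replicates were closer together than those of Ctsk (SD on the log2 scale 0.27 in short-term and 0.12 in control muscle, against 0.95 and 0.38). The change of 1.40 (SE 0.14, adjusted p = 3.25e-05) had the smallest p-value of the 10. At 6, 16 and 22 weeks Ctsh read 1179 and 1282, 1252, and 1416. These 4 values lay above all controls and below all short-term arrays.

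Ctsa (1371325_at) encodes cathepsin A, a serine carboxypeptidase that also protects lysosomal beta-galactosidase and neuraminidase. Controls 1 to 4 read 711, 679, 468 and 603, while short-term muscle read 1125 and 749 at 1 week, 737 and 1699 at 2 weeks, 1468 at 3 weeks and 1462 at 4 weeks. The lowest short-term array (rat 25) was close to the highest control (rat 62). The change was 1.26 (SE 0.23, adjusted p = 0.00316). Ctsb (1367646_at) encodes cathepsin B, an abundant cysteine protease with both endopeptidase and exopeptidase activity. Controls lay between 1626 and 1955, and short-term muscle between 1991 and 4558 with a median of 3122. Rat 25 again gave the lowest and rat 27 the highest short-term value, although both muscles were tenotomized for 2 weeks. The change was 1.11 (SE 0.20, adjusted p = 0.00386).

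The remaining members did not pass in short-term against control muscle. Lgmn encodes legumain, which cuts after asparagine and processes other cathepsins, and its probe set 1368430_at read 640.0 to 761 in controls and 667 to 1349.8 in short-term muscle (0.72, SE 0.18, adjusted p = 0.0842). Only rat 25 fell inside the control range among the 6 short-term arrays. Ctsz (1370885_at), the carboxypeptidase cathepsin Z, read 130.1 to 191 and 132 to 330.1 (0.70, SE 0.21, adjusted p = 0.162). Ctsc (1374778_at), also called dipeptidyl peptidase 1, which activates granule proteases of leukocytes, read 467 to 748 and 573 to 898 (0.62, SE 0.18, adjusted p = 0.216). Its highest value of all 14 arrays, 971, came from the 22-week muscle. Ctsl (1370244_at), the broad cysteine endopeptidase cathepsin L, read 1492 to 2054 in controls and 1490.4 to 2549 in short-term muscle (0.53, SE 0.16, adjusted p = 0.342). Without the 2-week muscle of rat 25, Lgmn (0.80, adjusted p = 0.0295) and Ctsz (0.83, adjusted p = 0.0329) passed as well.

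Ctsd (1367651_at) encodes cathepsin D, the aspartic protease of the group. Its signals in controls 1 to 4 were 1478, 2002, 1367 and 1177, and its short-term signals 1187 and 1313 at 1 week, 940.4 and 1369 at 2 weeks, 911 at 3 weeks and 1409 at 4 weeks. The groups overlapped. The difference was 0.01 with a 95% interval from -0.39 to 0.41 (SE 0.19, adjusted p = 0.144 for the scaled change of -0.34). Ctsd was the member with the smallest change relative to the median gene, and it passed under none of 29 alternative settings in this comparison.

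The promoters of the 2 genes with the largest rises, Ctsk and Ctss, and of Ctsd, which did not pass, are shown because their sequences differ in a motif linked to lysosomal genes. TFEB and related factors bind the E-box CACGTG, often within a longer palindrome known as the CLEAR element, near the start of many lysosomal genes. The sequences are from RefSeq on build GRCr8, run from 250 bases before to 50 after the annotated gene start, 5′ to 3′ on the gene's strand, and have CACGTG in capitals. Ctsk and Ctss lie on chromosome 2 with 1 protein-coding gene between them, their starts 27848 bases apart.
Ctsk promoter, chr2:185747298-185747597, plus strand: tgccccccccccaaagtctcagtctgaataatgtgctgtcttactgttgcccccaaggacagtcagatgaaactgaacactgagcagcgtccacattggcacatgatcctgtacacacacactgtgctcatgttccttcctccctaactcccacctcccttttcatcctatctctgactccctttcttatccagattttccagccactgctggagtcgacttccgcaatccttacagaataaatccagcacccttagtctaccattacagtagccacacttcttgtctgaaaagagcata
Ctss promoter, chr2:185775146-185775445, plus strand: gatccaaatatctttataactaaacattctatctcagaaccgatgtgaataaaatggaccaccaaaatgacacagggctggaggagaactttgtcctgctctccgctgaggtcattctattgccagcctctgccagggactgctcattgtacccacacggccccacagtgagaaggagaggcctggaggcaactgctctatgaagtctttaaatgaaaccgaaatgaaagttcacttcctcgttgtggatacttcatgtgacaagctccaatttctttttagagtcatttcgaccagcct
Ctsd promoter, chr1:206968772-206969071, minus strand: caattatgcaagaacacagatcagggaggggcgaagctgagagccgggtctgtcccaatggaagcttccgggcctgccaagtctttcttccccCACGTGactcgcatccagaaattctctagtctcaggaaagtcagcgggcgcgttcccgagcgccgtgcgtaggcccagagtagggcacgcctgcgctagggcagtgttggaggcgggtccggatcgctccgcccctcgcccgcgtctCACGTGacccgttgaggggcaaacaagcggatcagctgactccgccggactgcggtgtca

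CACGTG was found in 1 of the 9 member promoters given in the table (Ctsb was not matched), against 6.42% of the 33469 promoters. That promoter was the one of Ctsd, with matches that begin 157 and 10 bases before the start. TCACGTGA, which contains CACGTG, was found there once, 11 bases before the start (0.777% of all promoters), and the CLEAR palindrome in 0 of 9 (0.233%). All 3 motifs read the same on both strands, and a match is a description of the letters only. The promoters of Ctsk and Ctss held 48.3% and 45.3% G and C and 3 and 6 CG pairs, that of Ctsh 51.3% and 5, and that of Ctsa, which also rose, 59.3% and 13. Among members that did not pass, Lgmn held 58.3% and 18, Ctsc 59.7% and 13, and Ctsz 63.7% and 18. Those of Ctsd and Ctsl held 63.0% and 66.7%, with 27 and 30 CG pairs. The median of all promoters was 51.7% and 7, a comparison chosen after the values were seen and not tested.

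**Figure D2:**
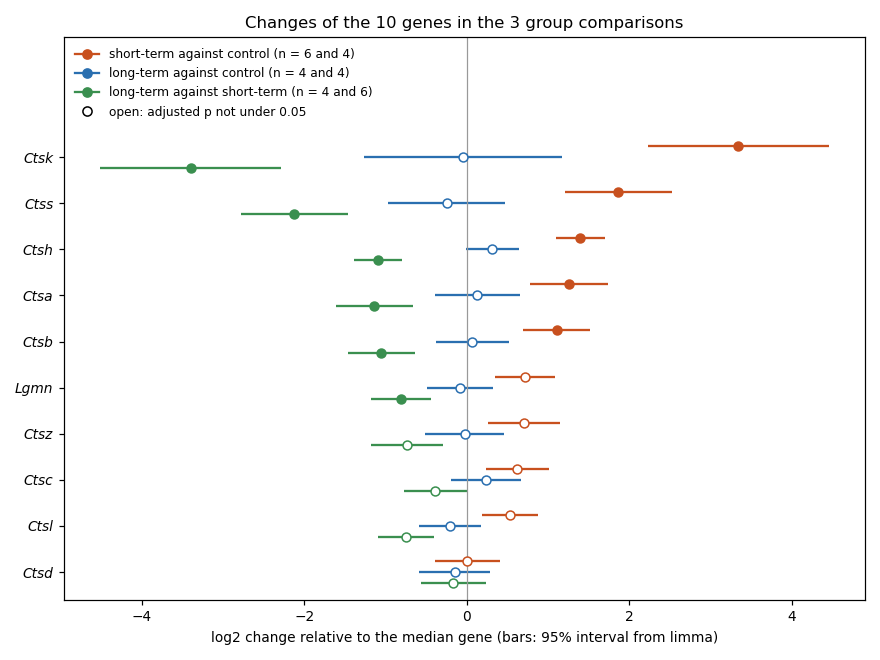
Change of each gene on the log2 scale relative to the median gene in short-term against control (n = 6 and 4), long-term against control (n = 4 and 4) and long-term against short-term muscle (n = 4 and 6); bars are 95% intervals from limma and open points did not pass an adjusted p of 0.05. Open points rest on a test of the change before the median gene is subtracted, while bars are taken after it. A bar can thus lie wholly above or below the median gene beside an open point. In short-term against control the bars of Lgmn, Ctsz, Ctsc and Ctsl lie above it. Ctsk has the largest change in the first and last comparison (3.34 and -3.40), and every point of long-term against control is open.

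The count of members called depended on how the arrays were scaled. On the deposited scale 5 rose, as with the common median. With a common 75th percentile, quantile normalization, a common trimmed mean or a common median of the tested genes, 9 of 10 rose, Lgmn, Ctsz, Ctsc and Ctsl being added, with adjusted p-values down to 0.00474, 0.0138, 0.00171 and 0.00249. The calls over all genes moved too: 12.3% higher and 39.6% lower with the common median, against 18.8% and 25.3%, 18.3% and 22.2%, 23.3% and 18.2%, and 17.9% and 26.5% in the order of those 4 scalings. Ctsk, Ctss, Ctsh, Ctsa and Ctsb rose under all 6 scalings, and 9.88% of the 10926 genes tested under each scaling did so. Ctsd was called under none of the 6, with a tested change that turned from below to above 0 with quantile normalization and the trimmed mean.

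**Figure D3:**
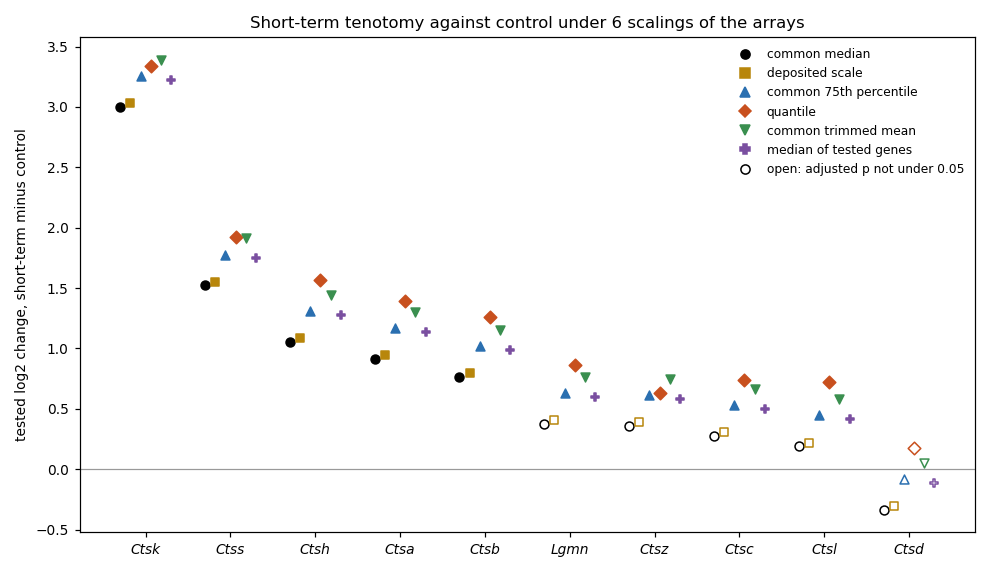
Tested log2 change of each gene in short-term against control muscle under 6 scalings of the arrays, with open symbols where the adjusted p was not under 0.05. Ctsk to Ctsb are filled under every scaling, Lgmn, Ctsz, Ctsc and Ctsl under 4 of 6, and Ctsd under none.

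Where a gene had more than 1 probe set, these were compared in a fit over 15107 probe sets. The second probe set of Ctsc (1368280_at) changed by 0.48 and the first by 0.60, neither past the threshold (adjusted p = 0.59 and 0.225). For Ctsl the second (1370245_at) stood at 0.13 and the first at 0.52 once the median gene was subtracted. Their scaled changes, which limma tests, had opposite signs, at -0.20 and 0.19 (adjusted p = 0.348 and 0.353). The Ctsl calls under 4 other scalings used the first probe set, which has the higher mean. The second of Lgmn (1380609_at) read 16.4 to 30.3 in controls and 9.7 to 15.2 in short-term muscle, where 9.7 is the floor to which low values were raised. It lay under the filter signal of 22.0 on all but 1 array, ran against the first probe set and was not tested. The other 7 genes had 1 probe set each.

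Already after 1 week Ctsk, Ctss and Ctsh were higher than in controls, by 2.57 (SE 0.45, n = 2 and 4, adjusted p = 0.0033), 1.99 (SE 0.31, adjusted p = 0.00231) and 1.20 (SE 0.16, adjusted p = 0.00214). These are 3 of 10 members, and 6.17% of genes tested were called higher at 1 week. Without the 1-week muscle of rat 12 the Ctsk call was lost (2.09, adjusted p = 0.0561), in a fit with 1 array at 1 week that is assumed to vary like the other groups. Leaving out the 2-week muscle of rat 25 or of rat 27 gave 5 members at 1 week, with Ctsa and Ctsb added. Genes called higher at 1 week among all genes were then 844 and 829, against 683 with all arrays. Over all genes 683 were higher and 3182 lower at 1 week, against 1277 and 1108 with the trimmed mean. At 2 weeks 5 of 10 were higher and 0 lower, with 9.84% of all genes higher and 37.7% lower. Ctsk stood at 3.40 (SE 0.45, adjusted p = 0.000388) and Ctsa of 1.26 (adjusted p = 0.0298). On the deposited scale 3 were higher and 1 lower at 2 weeks: Ctsa and Ctsb lost their call (adjusted p = 0.0995 and 0.103), and Ctsd was called lower by the tested change of -0.58 (adjusted p = 0.0366), a value close to that of the median gene in that fit (-0.58). Over all genes 1089 were higher and 4171 lower at 2 weeks, against 2255 and 1783 with the trimmed mean. Without rat 27 only 1 array was left at 2 weeks, so its spread could not be read and only changes are given. They were 1.17 for Ctss, 0.68 for Ctsa and 0.57 for Ctsb, against 1.61, 1.26 and 1.16 with all arrays. The 2-week count was 3 without control 3, which lost Ctsa and Ctsb (adjusted p = 0.0681 and 0.0587). Without control 2 Ctsb did not pass (adjusted p = 0.0619). Genes called higher at 2 weeks among all genes were 969 without control 3 and 980 without control 2, against 1089 with all arrays.

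Within the short-term group no change with time was called. For weeks 2 to 4 (4 arrays) against week 1 (2 arrays), 0 of 10 members passed in limma and 0 had an unadjusted p under 0.05, while 0.217% of all genes were called higher and 0.235% lower. The largest difference was that of Ctsk, at 1.11 (SE 0.67, adjusted p = 0.459), with Ctss at -0.23 (SE 0.42, adjusted p = 0.859). The 6 short-term arrays differed in the members together: the 2-week muscle of rat 25 was the lowest of the 6 for 8 of 10 members. The 4-week muscle of rat 42 was the highest for 4, and the muscles of rats 27 and 32 for 3 each. Rat 25 also had the lowest summed macrophage signal of the 6 (5417) and rat 42 the highest (12490.0). Sums of other lysosomal hydrolases (8107), proton pump subunits (9451) and class II genes (4855) were lowest in rat 25 too. So were sums of lysosomal membrane and accessory proteins (11554), protease inhibitors (6320) and other cathepsins (438). The same held for mast cell and granulocyte markers (185) and lymphocyte markers (120). Sums of fibroblast, muscle fibre, autophagy, lysosomal sorting and osteoclast type genes were lowest in other short-term rats. The poly-A spike-in signal of rat 25 was the highest of the 14 arrays (481.5). The part of these differences in the member values was not tested.

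Long-term muscle was lower than short-term muscle in 6 members and higher in 0, while 12.1% of all genes were called lower and 42.4% higher. Ctsk fell by 3.40 (SE 0.53, n = 4 and 6, adjusted p = 0.000248), Ctss by 2.12 (SE 0.31, adjusted p = 0.000303) and Ctsh by 1.09 (SE 0.14, adjusted p = 0.000637). These 3 genes were lower on all 4 long-term arrays than on any short-term array, as were 5.96% of genes tested, while 0 members and 29.8% of genes lay above. Ctsa fell by 1.14 (SE 0.23, adjusted p = 0.00946) and Ctsb by 1.05 (SE 0.20, adjusted p = 0.00812), with overlapping arrays. Lgmn fell by 0.81 (SE 0.18, adjusted p = 0.0462), a call kept in 13 of 29 alternative settings, with an adjusted p between 0.00274 and 0.521. It was lost without any 1 of 10 arrays, among them each of the 4 controls. Ctsl had a change of -0.75 (adjusted p = 0.0649), Ctsz of -0.73 (0.158), Ctsc of -0.39 (0.946) and Ctsd of -0.16 (0.356). The count depended on the scaling: 5 on the deposited scale, and 8, 9, 9 and 8 with the 75th percentile, quantile normalization, the trimmed mean and the tested-gene median, Ctsl and Ctsz being added in all 4 and Ctsc in 2. Of all genes 24.4%, 20.7%, 17.1% and 26.2% were then higher and 18.5%, 17.6%, 23.4% and 17.5% lower. Without the muscle of rat 25, Ctsl (-0.82, adjusted p = 0.0199) and Ctsz (-0.86, adjusted p = 0.0313) passed, and without that of rat 27 Ctsl did (-0.80, adjusted p = 0.0458).

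Against controls no member passed in long-term muscle: 0 of 10 were called in limma and 1 (Ctsh, named after its value was seen) had an unadjusted p under 0.05, with 0% of all genes called in either direction. Ctsh read a change of 0.31 with a 95% interval from -0.02 to 0.64, and its 4 long-term arrays lay above the 4 controls, which 0.877% of genes did. The intervals were -0.39 to 0.65 for Ctsa and -0.38 to 0.52 for Ctsb. They were wider for Ctss, at -0.97 to 0.48, and for Ctsk, at -1.27 to 1.17, whose long-term arrays were the most spread of the 10 (SD 1.40 on the log2 scale). With 4 arrays per group, changes inside these intervals are not excluded. The intervals are not limits of detection, since calls rest on p-values of the scaled change adjusted over all genes tested.

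Rats 61 and 62 allowed the right 6-week muscle to be set beside the left control of the same animal. Ctsk read 113 on the left and 180.3 on the right in rat 61, and 119.9 and 172 in rat 62, differences of 0.67 and 0.52 in the scaled log2 signal, here not taken relative to the median gene. Ctss differed by 0.75 and 0.42, Ctsh by 0.15 and 0.23, Ctsa by 0.23 and 0.14, Ctsb by 0.20 and 0.08 and Lgmn by 0.10 and 0.08. On that scale these 6 genes were higher on the tenotomized side in both rats, and Ctsc, Ctsd, Ctsl and Ctsz were higher in rat 61 and lower in rat 62. Relative to the median gene, 9 of 10 members were higher on that side in both rats, Ctsk by 0.66 and 0.69, and Ctsl differed by 0.053 and -0.115 in rats 61 and 62. At 6 weeks against all 4 controls 0 of 10 members passed in limma and 0 had an unadjusted p under 0.05 (0% of all genes called), and Ctsk stood at 0.95 (SE 0.45, adjusted p = 0.989). A fit of the 4 muscles of these rats with the rat as a block called 0 members, and 0 of all 11064 genes higher and 2 lower. With so few muscles such a fit can call few genes, so its 0 does not decide whether members differed.

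Over the 10 tenotomized arrays, the slope on log2 of the week was -1.03 for Ctsk (SE 0.24, adjusted p = 0.0163) and -0.72 for Ctss (SE 0.11, adjusted p = 0.00481), per doubling of time and relative to the median gene. No other member passed, and 5.49% of all genes had a falling and 29.9% a rising slope. The calls over all genes, 3304 rising and 607 falling, became 636 and 842 with the trimmed mean, 620 and 424 with quantile normalization, and 354 and 37 without the 22-week array. Both calls rested on the 22-week muscle: without it the slopes were -0.69 (adjusted p = 0.174) and -0.56 (adjusted p = 0.0627). Without the 1-week muscle of rat 13, Ctsa passed too (-0.40, adjusted p = 0.0491). The 22-week array also had the lowest deposited median (29.7), a Gapdh ratio near the top of the range (2.78) and the lowest summed signals of the fibroblast list (5799) and of the macrophage list (2039), whose part in the result was not tested.

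Other genes of the lysosome did not all move as Ctsk and Ctss did in short-term against control muscle. The counts that follow stand beside 12.3% of all genes higher and 39.6% lower, and beside 9.88% higher and 16.9% lower under all 6 scalings. By scaling, 9.96% to 23.3% of all genes were higher and 18.2% to 39.6% lower. Of 23 other hydrolases 8 rose and 4 fell (median change 0.62), with Gusb, a glucuronidase, at 1.92 (SE 0.28, adjusted p = 0.000296), Man2b1, a mannosidase, at 1.48 and Gaa, which breaks down glycogen, at -0.53 (adjusted p = 0.000131). By scaling, 4 to 13 of the 23 rose and 2 to 4 fell, and under all 6 scalings 4 rose and 2 fell. Of 14 membrane and accessory proteins 3 rose and 3 fell (median 0.36), among them Gm2a, a cofactor of ganglioside breakdown, at 1.71, Slc17a5, a sialic acid exporter, at 1.38 and Tmem192 at -0.52. By scaling, 2 to 8 of the 14 rose and 1 to 3 fell, and under all 6 scalings 2 rose and 1 fell. Subunits of the vacuolar proton pump were called lower in 13 of 16 and higher in 0, with a median of -0.12, but only Atp6v1e1 (-0.81) and Atp6v1b2 (-0.41) fell under all 6 scalings, and the list median turned to 0.04 in 1 of them. By scaling, 3 to 13 of the 16 subunits were called lower and 0 to 2 higher. Atp6v1f stood at -0.33 (adjusted p = 0.000356 with the common median).

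Genes that direct or regulate lysosomal enzymes were called lower in 4 of 9 and higher in 0 (median -0.01), a share near the 39.6% of all genes called lower. Tfeb, which activates lysosomal genes, fell by 0.80 (SE 0.17, adjusted p = 5.7e-05), from a mean signal of 454 to 206, and Mitf, a related factor, by 0.62 (SE 0.19, adjusted p = 0.000756). For both, the highest short-term array was below the lowest control, and both fell under all 6 scalings, as did 16.9% of all genes. M6pr, a mannose 6-phosphate receptor, stood at -0.22 (adjusted p = 0.0051), a call not kept under all scalings. Autophagy genes were called lower in 5 of 12 and higher in 0 (median -0.06), again near the 39.6% of all genes, and 0 of them under all 6 scalings. Atg4b stood at -0.29, Becn1 at -0.22 and Bnip3 at -0.40.

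Of 7 protease inhibitors on the array 6 were tested, and 3 rose and 0 fell (median 1.18), under all 6 scalings: Cst7, a cystatin of leukocytes, by 1.75 (SE 0.29, adjusted p = 0.000997), A2m, a broad protease inhibitor, by 2.21 from a mean control signal of 12.2 near the floor, and Serpinb1a by 1.29. Other cathepsins were measured in 8 of 11, of which 3 were tested and 0 were called in limma with the common median (0 with an unadjusted p under 0.05). Their count also depended on the scaling, with 0 to 3 called higher by scaling and 0 under all 6. Ctse stood at 0.91 (adjusted p = 0.157), Ctso of 0.62 (0.371) and Ctsf of 0.39 (0.827). Ctsw, Ctsj, Ctsq and Ctsr lay at the floor on all 14 arrays.

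Macrophage markers, class II genes and fibroblast markers mostly rose in short-term against control muscle, while markers of the other listed cell types mostly did not. Of 20 macrophage markers 17 rose and 0 fell (median 1.75), all 17 under all 6 scalings, with Fcer1g at 2.29 and Aif1 at 2.22, and Lyz2, lysozyme, at 1.51. Their summed signal was 2222 to 4141 in controls, 5417 to 12490.0 in short-term and 2039 to 4365 in long-term muscle, and no marker lay at the floor on all arrays. Of 8 class II genes, which encode the complex whose invariant chain Ctss trims, 6 rose and 2 were called lower (median 1.85). Cd74, the invariant chain itself, rose by 2.49 (SE 0.34, adjusted p = 0.000124), RT1-Da by 2.41 and RT1-Db1 by 2.59. The 2 lower ones were RT1-DMb at -0.60 (adjusted p = 0.00784) and RT1-Bb at -1.98 (SE 0.88, adjusted p = 0.0354). RT1-Bb went from a mean signal of 116 in controls to 23.2. These 2 calls did not hold under all scalings, and the genes were named after their values were seen. In long-term against short-term muscle RT1-Bb was called higher under all 6 scalings (2.61), as were 15.5% of all genes.

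Of 13 fibroblast markers 12 rose and 0 fell (median 1.72), 11 of them under all 6 scalings, with Col1a1 and Col3a1, chains of fibrillar collagens that cathepsin K can cleave, at 3.09 and 1.77, and Fbln1 at 2.32. Their summed signal was 11928 to 18402 in controls, 31733 to 54043 in short-term and 5799 to 19528 in long-term muscle. Of 7 osteoclast type markers 4 were measured and 3 tested: Acp5, an acid phosphatase that macrophages also make, rose by 3.23 from a control mean of 13.3 near the floor (adjusted p = 1.5e-05), Nfatc1 stood at -0.33 (adjusted p = 0.00792, not kept under all scalings) and Tnfrsf11a of 0.61 (adjusted p = 0.53). The summed osteoclast type signal was 720.0 to 1056 in controls and 529 to 755 in short-term muscle. Mast cell and granulocyte markers were called in 0 of 6 tested in limma (0 with an unadjusted p under 0.05; Mcpt1 at the floor on all arrays), with sums of 346 to 627 and 185 to 1051. Lymphocyte markers were called higher in 1 of 3 tested, Cd3d, with all controls at the floor of 9.69 and a short-term mean of 21.4, so that no fold is given, a call not kept under all scalings, with sums of 82 to 145 and 120.0 to 191. The part of these cells in the changes of the cathepsins was not tested.

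**Figure D4:**
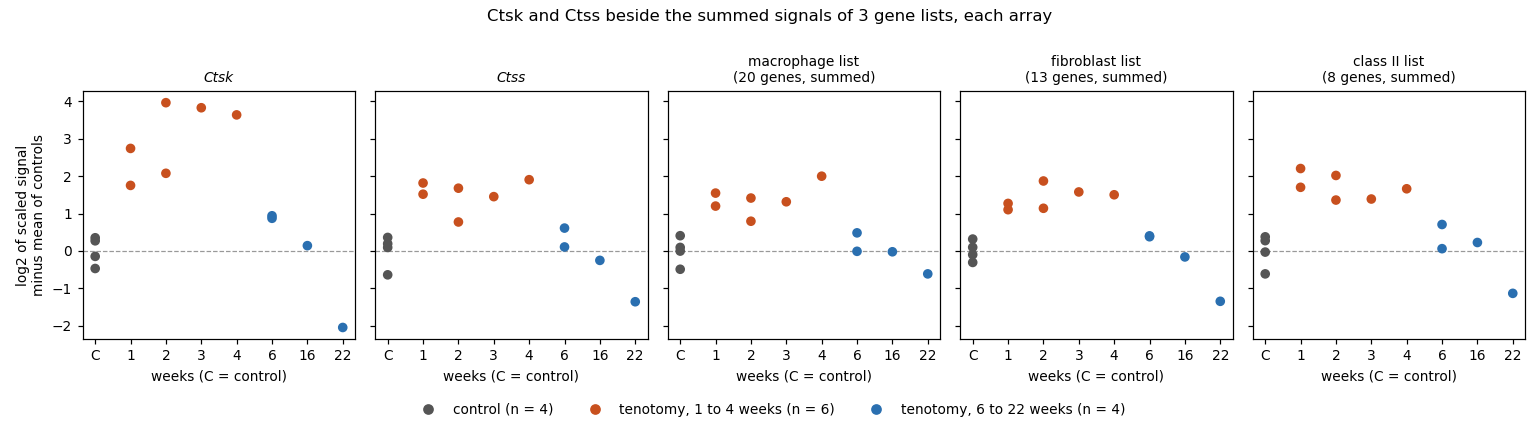
Ctsk, Ctss and the summed signals of 20 macrophage, 13 fibroblast and 8 class II genes on each of the 14 arrays, as log2 differences from the mean of the 4 controls, by weeks of tenotomy. In all 5 panels the 6 short-term arrays lie above the 4 controls and the 22-week array is the lowest of the 14.

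The genes whose signals were most like each member over the 14 arrays differed between members, given here as Pearson correlations without a test, since the arrays fall into groups and share their scaling. Ctsk was most like Pcolce, an enhancer of procollagen processing (0.994), Col6a2, a collagen chain (0.991), and Mmp2, a gelatinase (0.989). Ctss was most like Cd74 (0.974), Pld4 (0.971) and RT1-Da (0.970). The values for Ctsb were 0.974 with Ccnyl1, 0.973 with Rab31 and 0.972 with Arpc4, and for Ctsa 0.973 with Fads1, 0.966 with Slc39a6 and 0.963 with Ralgdsl1. For Ctsh they were 0.956 with Poglut3 and 0.949 with both Flrt3 and Mboat1. The others were lower: Ctsz with Gngt2 (0.938), Lcp2 (0.903) and Frrs1 (0.894), and Lgmn with Necap2 (0.912), Pld1 (0.906) and Il2rg (0.905). Ctsd was most like Ccdc85c (0.898), Btbd2 (0.862) and Dapk3 (0.860), Ctsc like Gorab (0.883), Arhgef3 (0.874) and Hopx (0.844), and Ctsl like Plat (0.827), Tmem128 (0.819) and Adora2b (0.816).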

How the data were processed

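Total RNA of each muscle was labelled with biotin and measured on 1 Affymetrix array. The deposited values are probe set signals, a linear intensity made with MAS5 per the submitters' processing notes; its version, scaling target and detection calls are not given in the sources used here. There is no read depth; precision depends on how many arrays there are. The 57 control probe sets were left out, signals were taken to log2, each array was shifted to a common median, and values under the pooled 25th percentile (9.69) were raised to it. Of the probe sets 20826 carried 1 gene symbol, 436 several and 9780 none; 20758 symbols were updated by gene ID to GRCr8 names. The probe set with the highest mean stood for a gene, and a gene was tested if above the pooled 40th percentile (22.0) on at least 4 arrays.

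Groups were fitted with limma 3.58.1 in R 4.3.3 over all 14 arrays (the slope over the 10 tenotomized ones), with 1 mean per group or time point and an intensity trend, after a test on simulated data. Rats 61 and 62 gave a muscle to both control and long-term groups per the labels, which pairs them. The p-values treat arrays as independent. Members, lists and tests were chosen with earlier results of these data known. Named genes were all members, at most 3 per list with the smallest adjusted p in short-term against control, and the 3 most correlated genes per member. Alternatives were other scalings, filters, floors, probe set rules and variance settings, the rat as a block and leaving out each array.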

Additional observations from a re-analysis of the deposited data

Results flagged for a closer look

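Of 39 checks for a single array far from the rest of its group (13 probe sets in 3 groups), 1 found such an array, and chance gives about 1 in 20. The second probe set of Lgmn, 1380609_at, read 30.3 on control 2, against 17.4 on the next highest control, a gap of 0.907 of the group's range on the log2 scale. The signal is near the floor of 9.69, and this probe set was not tested on its own. Where probe sets of a gene were averaged, it entered the Lgmn value, and Lgmn in long-term against short-term muscle then had an adjusted p of 0.521.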

How the results depend on the processing

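The members called in short-term against control muscle (5) became 9 with a common 75th percentile, quantile normalization, a common trimmed mean or a common median of the tested genes. In the same order of scalings, the count at 1 week (3) became 5, 8, 8 and 5, and that of falling slopes (2) became 4 each time. Calls over all genes moved as well. At 1 week 683 higher genes became 1030, 998, 1277 and 1043, and 607 falling slopes became 785, 424, 842 and 816. At 2 weeks the count (5) was 8 with quantile normalization, 3 without the filter and 3 without the intensity trend. Genes called higher over all genes (1089) were then 1672, 867 and 1075. On the deposited scale the count was 4, with 3 higher and Ctsd lower, beside 682 higher and 4475 lower over all genes. Without the filter 1 slope was called, beside 293 falling slopes over all genes. Ctsl at 2 weeks turned from a tested change below 0 to a call above 0 with quantile normalization (0.46 relative to the median gene, adjusted p = 0.0226). Leaving out 1 array gave counts of 5 to 7 for short-term against control, 5 to 8 for long-term against short-term, 2 to 5 at 1 week, 2 to 6 at 2 weeks, 0 to 3 for the slope, and 0 for long-term against control, for 6 weeks and for weeks 2 to 4 against week 1. Over all genes, leaving out 1 array gave 1152 to 1494 higher in short-term against control and 1064 to 1471 lower in long-term against short-term. With the rat as a replicate block, the counts stayed at 5 and 0 in short-term and long-term against control. They stayed at 6 in long-term against short-term, and at 3, 5 and 0 at 1, 2 and 6 weeks against control. Weeks 2 to 4 against week 1 stayed at 0. The paired fit at 6 weeks called 0 members, and 0 of all genes higher and 2 lower. Ctsk, Ctss, Ctsh, Ctsa and Ctsb kept their call in both group comparisons with short-term muscle under all 29 alternatives. Apart from the construction of each setting, the cause of these moves was not tested. Low signals limit Lgmn's second probe set, A2m, Acp5 and Cd3d, which lay near the floor in controls.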
